A study of Mus musculus with 3 samples.

Results

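The autophagy machinery is described here as it was measured in 3 RNA libraries of mouse vestibular cells with a black-ball appearance. Its genes were chosen by name: protein-coding entries of the deposited table whose symbol starts with Atg and a digit, plus 16 named genes of the same pathway. The rule found 36 genes among the 57180 in the table, and all 36 had a count in at least 1 library. Of these, 34 are known autophagy genes. The other 2 are Atg4a-ps, described in the table as a pseudogene of Atg4a, and Atg5lrt, whose description in the table is a retrotransposed ATP synthase subunit and not an autophagy gene. Both met the rule and were kept in every count.

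Autophagy is the process by which a cell wraps part of its own content in a double membrane, the autophagosome, and delivers it to lysosomes for breakdown. A kinase complex around ULK starts the process, a lipid kinase complex marks the membrane, ATG9 and ATG2 supply lipid, and a pair of conjugation reactions attach small ubiquitin-like proteins of the ATG8 family to the growing membrane. Cargo receptors bind ATG8 proteins and the material to be removed. In macrophages, parts of the same machinery also act in the handling of engulfed material, and in pigment cells they have been linked to the formation and turnover of pigment granules.

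All samples belong to 1 group, given in the labels as wild-type (WT) macrophages and as cells of the vestibule, the part of the inner ear that senses balance, although the study's title names melanocytes, which make pigment. According to the labels' protocols, RNA of 18 such cells from 9 mice, 3 mice per group, was amplified with the SMART-Seq HT kit. The sources used here give neither the division of cells and animals among the libraries nor the age and strain of the mice. With no control group, a gene can only be set against a fixed level or against other genes of the same libraries. The p-values rest only on spread among the 3 libraries, and limma's test draws on that spread in other genes as well. Nothing in the labels says that the libraries came from separate animals, so that spread may be technical.

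The libraries held 18460546, 15086854 and 14095521 counts in replicates 1, 2 and 3, of which the 36 genes took 0.389% ± 0.0369 (SD, n = 3). A floor of 3 counts corresponded to 0.163, 0.199 and 0.213 CPM (counts divided by the library total alone), and without molecular identifiers it covers counting error only. Markers of several cell types were present together. The test described below called 37.6% of all genes and 50.5% of protein-coding genes above 1 TPM. It called 15 of 18 macrophage markers (not Cx3cr1, Itgam and Cd163). Of the melanocyte markers it called 9 of 15 (not Mitf, Kit, Oca2, Gpr143, Trpm1 and Mc1r). Also called were 9 of 10 hair cell and 4 of 8 neuronal markers. The same held for 3 of 8 neutrophil, 5 of 7 erythroid, 7 of 8 fibroblast and fibrocyte, and 7 of 8 non-sensory epithelial markers. Neuronal (50%) and neutrophil markers (37.5%) were thus not called more often than protein-coding genes, and melanocyte markers were at 60%. Summed levels were 5794 to 9010 TPM for the macrophage list and 581.6 to 715.1 TPM for the melanocyte list. Single genes carried much of some sums: Lyz2 of the macrophage list had 6490, 3513 and 3845 TPM in replicates 1, 2 and 3. The mean of log2(TPM + 1) was 5.18 to 5.54 over macrophage and 3.36 to 3.56 over melanocyte markers. The sums were 486.4 to 773.2 TPM for 10 hair cell markers, 72.23 to 312.1 for 8 neuronal markers, 20.21 to 416.1 for 8 neutrophil markers and 21791 to 51507 for 7 erythroid markers. They were 9474 to 13254 TPM for 8 fibroblast and fibrocyte markers, with 4653 to 10205 from Coch, and 1759 to 2580 for 8 markers of non-sensory epithelium. No listed marker was at 0 in all 3 libraries, but the melanocyte markers Oca2 and Mc1r were at 0 in replicates 2 and 3. In replicate 1 they had 0.23 and 0.037 TPM. The part of each cell type in the levels below was not tested, and in such libraries fewer cells of a type and less RNA per cell cannot be told apart.

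The ATG8 family carries the main finding, so the last coding bases of its 5 genes are shown first. ATG4 proteases cut each of these proteins behind a glycine near its end, and that glycine is then joined to a membrane lipid. The sequences are from GENCODE vM21 transcripts (build GRCm38, plus strand, read 5′ to 3′, stop codon left out), with the glycine codon in capitals. They lie at chr2:155277602-155277634 for Map1lc3a, chr8:121596723-121596767 for Map1lc3b, chr11:69994489-69994521 for Gabarap, chr6:129541132-129541164 for Gabarapl1 and chr8:111952370-111952402 for Gabarapl2.
Map1lc3a: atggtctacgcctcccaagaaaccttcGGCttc
Map1lc3b: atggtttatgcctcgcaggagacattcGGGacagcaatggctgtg
Gabarap: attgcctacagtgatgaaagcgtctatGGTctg
Gabarapl1: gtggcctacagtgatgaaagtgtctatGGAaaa
Gabarapl2: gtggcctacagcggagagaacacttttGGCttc

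The glycine is codon 120 of 121 in Map1lc3a and codon 120 of 125 in Map1lc3b, so that 5 codons follow it in Map1lc3b. In Gabarap, Gabarapl1 and Gabarapl2 it is codon 116 of 117, with 1 codon behind it. Over aligned coding bases, Map1lc3a and Map1lc3b were 77.6% identical and Gabarap and Gabarapl1 74.6%, while pairs across the LC3 and GABARAP subfamilies were 54.0% to 60.9% identical. No stretch of 50 bases was shared between the transcripts of any pair of the 5 genes.

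Levels below are TPM, the deposited FPKM brought to a common sum per library, so that genes can be compared per length. A gene was called above a level by limma's one-sided moderated test of its mean log2(TPM + 1), and its p was adjusted by Benjamini and Hochberg's method across all 27265 genes counted in any library, at a threshold of 0.05. Of the 36 genes, 23 (63.9%) were called above 1 TPM, against 37.6% of all genes tested and 50.5% of protein-coding genes tested. Above 10 TPM, 11 (30.6%) were called, against 14.7% of all genes tested and 19.2% of protein-coding genes. The median of the mean levels was 8.13 TPM over the 36 genes, 2.24 TPM over all genes tested and 4.55 TPM over protein-coding genes. In single libraries the median of the 36 was 10.51, 8.643 and 7.299 TPM in replicates 1, 2 and 3. The list lay below other housekeeping machinery of the same libraries: the median was 55.2 TPM over 23 tested genes of the V-ATPase, the proton pump of lysosomes, and 98.6 TPM over 40 proteasome genes, with 16 and 30 genes called above 10 TPM. These medians are descriptions, with no test of the difference.

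**Figure D1:**
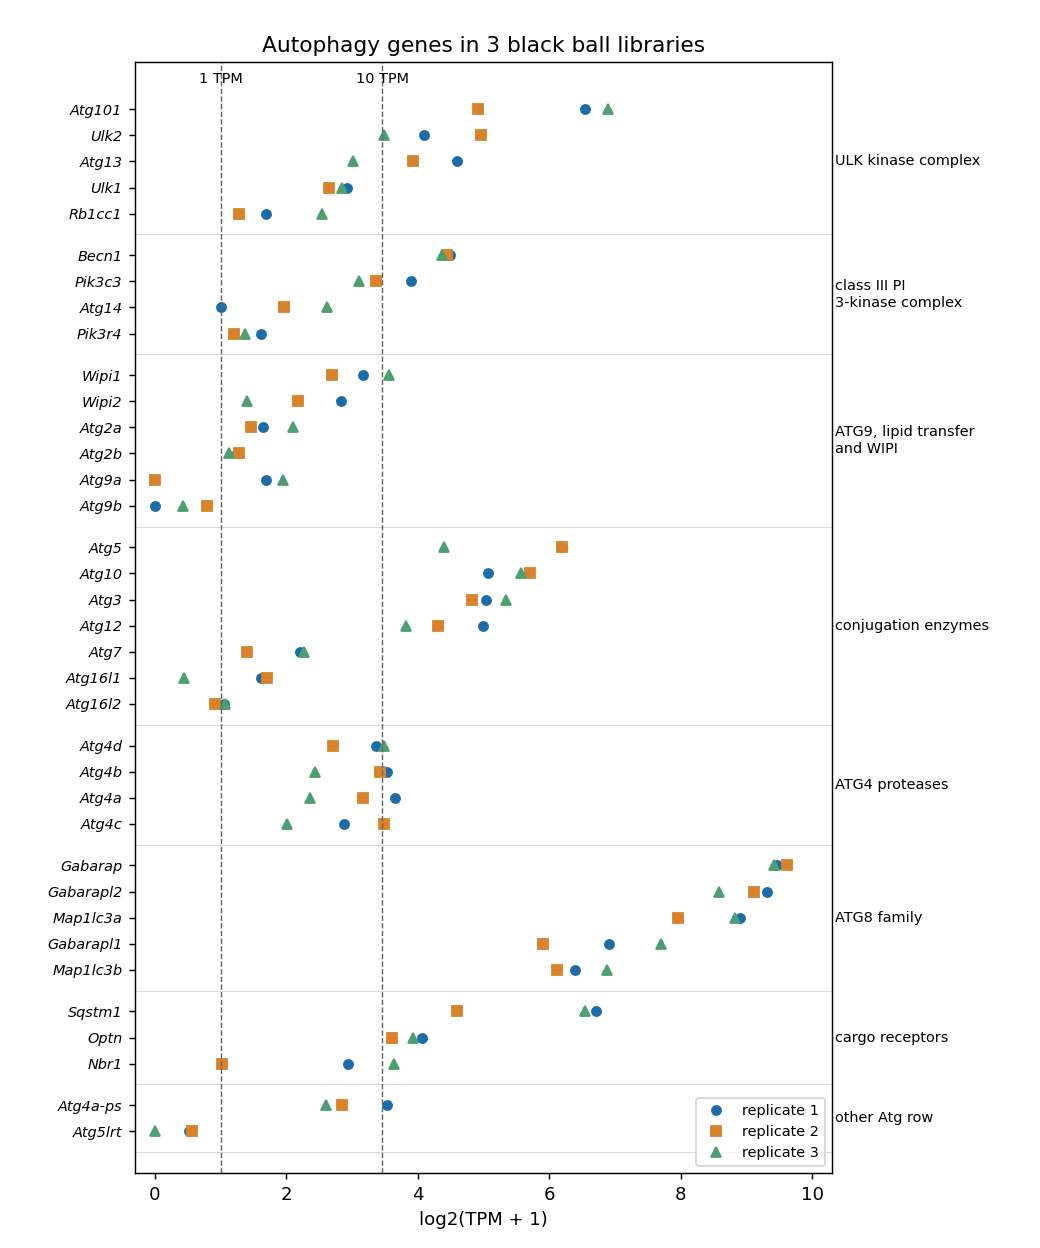
Level of each of the 36 genes in each library as log2(TPM + 1), grouped by role, with 1 point per library and dashed lines at 1 and 10 TPM. All points of the 5 ATG8 genes lie to the right of 10 TPM, while in the group of ATG9, ATG2 and WIPI genes the highest mean is 8.07 TPM.

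The plot of levels by role shows Gabarap, Gabarapl2 and Map1lc3a above every other of the 36 genes in each library. Gabarapl1 and Map1lc3b overlapped Atg101, Atg5 and Sqstm1. The 5 ATG8 genes were all called above 10 TPM and had a median of 392.3 TPM. The medians of the other roles lay between 2.04 TPM for the ATG9, lipid transfer and WIPI genes and 20.9 TPM for the conjugation enzymes. ATG8 genes made up 78.67%, 81.95% and 79.64% of the summed TPM of the 36 genes in replicates 1, 2 and 3, which is 80.1% ± 1.69 (SD, n = 3). This share was taken with the deposited length only, so how far it depends on gene length was not tested.

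Gabarap, a trafficking and late-step ATG8 protein, was the highest of all 36 genes, with 705, 782 and 684 TPM in replicates 1, 2 and 3 (17427, 17597 and 15075 counts). Its mean was 724 ± 51.6 TPM (SD, n = 3), and limma's adjusted p against 10 TPM was 0.000111. The libraries lay close together, the highest 1.14-fold above the lowest. Gabarapl2, also known as GATE-16, had 634, 554 and 381 TPM, and Map1lc3a, a member of the LC3 branch, had 478, 247 and 452 TPM. Gabarapl2 was lowest in replicate 3 and Map1lc3a in replicate 2, so the order of this pair was not the same in every library. Gabarapl1 had 119.5, 58.8 and 206 TPM, with replicate 2 lowest and replicate 3 highest (128 ± 73.9, SD, n = 3; limma's adjusted p against 10 TPM 0.00147). Map1lc3b, the LC3 form most often used as an autophagosome marker, had 83.3, 68.5 and 116 TPM and the lowest mean of the family, 89.3 ± 24.4 TPM (SD, n = 3; limma's adjusted p against 10 TPM 0.000343).

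Within the family, Gabarap supplied 39.3% ± 5.70 of the TPM, Gabarapl2 28.2% ± 6.47, Map1lc3a 20.9% ± 5.61, Gabarapl1 6.85% ± 3.96 and Map1lc3b 4.82% ± 1.30 (SD, n = 3 each). The 3 GABARAP genes together held 72.21%, 81.55% and 69.1% in replicates 1, 2 and 3, against 27.79%, 18.45% and 30.9% for the LC3 genes. The GABARAP branch thus held the larger share in 3 of 3 libraries, but its sum also runs over more genes than that of the LC3 branch. Gabarapl1 alone was below Map1lc3a in 3 of 3 libraries. The GABARAP share was 74.3% ± 6.48 with the deposited length and 69.5% ± 6.79 in CPM, which uses no length. It was 70.4% ± 7.08 with the length of the longest transcript, a scale added after the data were seen.

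**Figure D2:**
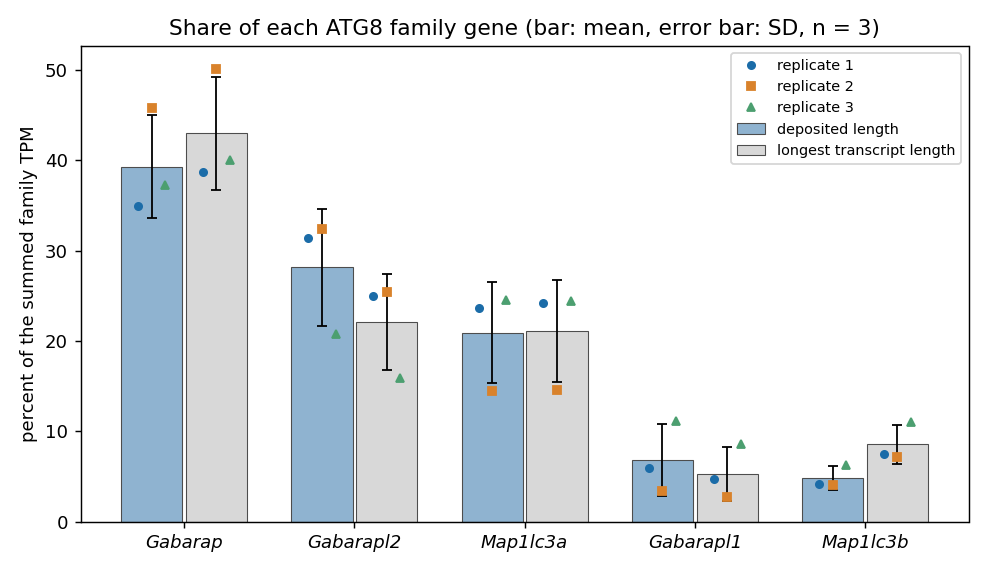
Share of each ATG8 gene in the family's summed TPM, in percent, under the deposited length and under the length of the longest transcript. Bars are means over the 3 libraries, error bars are SD and points are single libraries. Gabarap has the largest mean share under both lengths and Map1lc3b has 4.82% under the first and 8.56% under the second.

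Because the rows of these paralogs are measured in the same library, each pair was compared as a difference of log2(TPM + 1) within libraries. Over 8 families 24 pairs were compared, with the cargo receptors grouped by role and not as paralogs. With 3 libraries the exact two-sided sign-flip permutation test cannot give a p below 0.25, so no pair could pass, and Benjamini-Hochberg adjusted values over the 24 pairs ran from 0.429 to 1. In 14 of the 24 pairs the same gene was higher in 3 of 3 libraries, in 12 of them under both gene lengths, and in 9 also in CPM. A pair without any difference keeps the same order in 3 of 3 libraries with a probability of 0.25. Pairs that share a gene are not independent, and pairs of other genes were not counted, so these counts are descriptions. Gabarap exceeded Gabarapl2 by 0.50 ± 0.34, Map1lc3a by 0.94 ± 0.62, Gabarapl1 by 2.66 ± 1.00 and Map1lc3b by 3.04 ± 0.47 (log2, SD, n = 3 each), every time in 3 of 3 libraries. Map1lc3a exceeded Map1lc3b by 2.10 ± 0.36 in 3 of 3 libraries, by 1.29 with the longest transcript and by 0.05 in CPM, so the size of this gap depends on the length used. Gabarapl1 minus Map1lc3b was 0.37 ± 0.53, higher in 2 of 3 libraries, and turned to -0.81 with the longest transcript and -1.35 in CPM.

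The deposited FPKM divides by a length whose definition the sources used here do not give. For 10290 genes with 1 transcript in GENCODE vM21, the length implied by count and FPKM matched that transcript within 1% in 95.5% of cases. For 15683 genes with several transcripts it was a median of 2.01 times the longest transcript (the longest coding one, where a gene has any). Among the 34 autophagy genes with several transcripts the median was also 2.01, from 1.07 for Atg5 to 5.22 for Atg16l1. Map1lc3b, with 5 transcripts, was divided by a length 4.02 times that of the longest, and its mean was 221 TPM with that transcript, against 89.3 TPM as deposited. For Becn1 the ratio was 2.90, with 37.0 TPM on the longest transcript and 20.7 TPM as deposited. The ratio did not follow the number of transcripts gene by gene: it was 1.86 for Ulk1, with 11 transcripts.

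**Figure D3:**
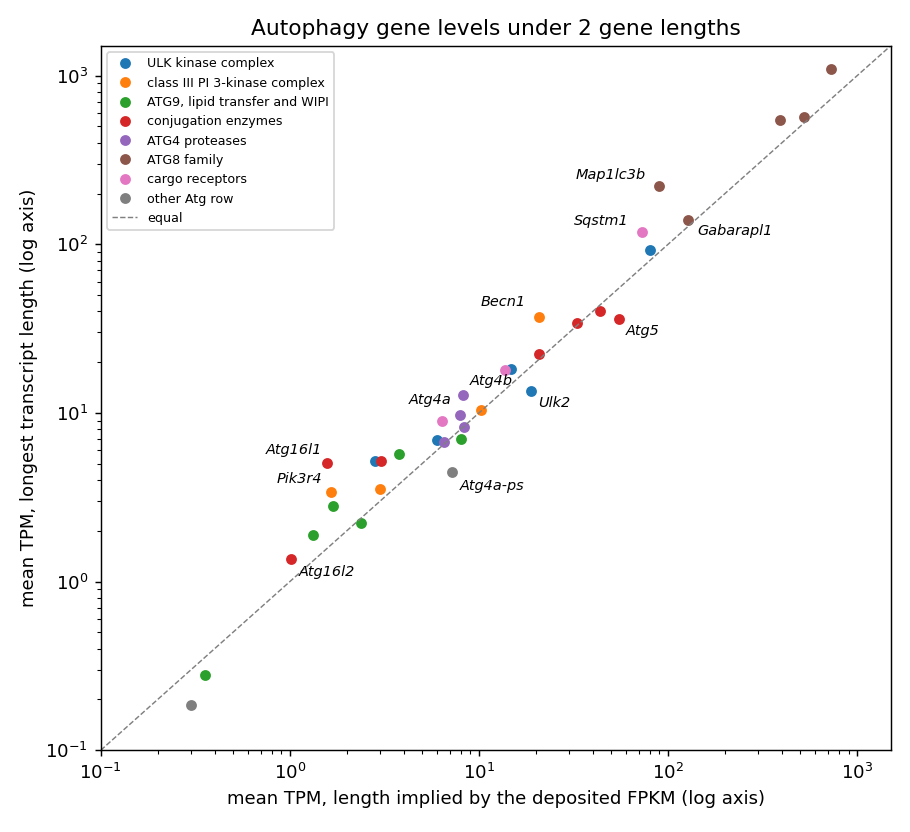
Mean TPM of the 36 genes under the length of the longest transcript (vertical, log axis) and under the length implied by the deposited FPKM (horizontal, log axis), with 1 point per gene coloured by role and a dashed line of equality. Atg16l1 (5.05 and 1.57 TPM) and Map1lc3b (221 and 89.3 TPM) lie far above the line, and Atg5 (36.2 and 54.8 TPM) and Ulk2 (13.6 and 18.8 TPM) below it.

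At the start of the pathway, 4 of 5 genes of the ULK kinase complex were called above 1 TPM and 1 above 10 TPM. Atg101, a small scaffold that stabilises ATG13, was the highest, with 92.5, 29.2 and 118 TPM in replicates 1, 2 and 3 (80.0 ± 45.9, SD, n = 3; limma's adjusted p against 10 TPM 0.00635). Replicate 2 was low and the others high, a range of 4.06-fold. Ulk2, one of the kinases, had 16.1, 30.1 and 10.2 TPM, highest in replicate 2. Its paralog Ulk1 had 6.57, 5.26 and 6.19 TPM, which did not overlap the values of Ulk2. Ulk1 minus Ulk2 was -1.37 ± 0.86 (log2, SD, n = 3), with Ulk1 lower in 3 of 3 libraries. With the longest transcript this difference was -0.76 ± 0.84, less than its SD, and in CPM it was -0.95. On the longest transcript Ulk1 was still lower in 3 of 3 libraries. Its value in replicate 1 was then above that of Ulk2 in replicate 3. The size of this gap and the lack of overlap thus depend on the length used. Atg13, the adaptor of the complex, had 23.1, 14.1 and 7.04 TPM (14.8 ± 8.05, SD, n = 3) and was called above 1 TPM (limma's adjusted p 0.00127) but not above 10 TPM (0.87). Rb1cc1, the large scaffold also called FIP200, had 2.22, 1.44 and 4.82 TPM. Rb1cc1 missed the test at 1 TPM with the deposited length (limma's adjusted p 0.147) and passed it with the longest transcript (0.0276; range over all alternatives 0.000135 to 0.411).

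In the class III lipid kinase complex, which makes phosphatidylinositol 3-phosphate on the membrane, Becn1 and Pik3c3 were called above 1 TPM, and Atg14 and Pik3r4 were not. Becn1, the regulatory subunit beclin 1, had 21.6, 20.9 and 19.6 TPM, a coefficient of variation of 4.86%. It was called above 10 TPM (limma's adjusted p 0.0189), but not without replicate 1 (0.14) or without replicate 2 (0.0665; range over all alternatives 2.16e-05 to 0.14). Pik3c3, the catalytic subunit VPS34, had 14.0, 9.31 and 7.56 TPM. Atg14, which directs the complex to autophagosome formation, had 1.01, 2.90 and 5.11 TPM, a 5.08-fold range with replicate 3 highest (limma's adjusted p against 1 TPM 0.16). Pik3r4, the scaffold subunit VPS15, had the lowest mean of the complex, 1.65 ± 0.394 TPM (SD, n = 3; limma's adjusted p 0.349). Atg14 passed edgeR's quasi-likelihood test on the counts (0.0183; range over all alternatives 0.0139 to 0.423). In CPM, set against 1 CPM, limma's test called Atg14 (0.0139) and Pik3r4 (0.000766; range over all alternatives 0.000766 to 0.865).

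The genes for membrane supply were the lowest of the machinery, with Wipi1 alone of 6 called above 1 TPM and none above 10 TPM. WIPI proteins bind the lipid made by the kinase complex. Wipi1 had 7.99, 5.45 and 10.8 TPM (8.07 ± 2.65, SD, n = 3; limma's adjusted p against 1 TPM 0.00213). Wipi2 had 6.10, 3.54 and 1.63 TPM, and missed limma's test (adjusted p 0.0699). It passed that test without replicate 3 (0.0265), with the longest transcript (0.0207) and when only protein-coding genes were tested (0.0493). It also passed edgeR's quasi-likelihood test on the counts (0.00271). Without replicate 1 or replicate 2 it missed limma's test (range over all alternatives 0.000246 to 0.277). Wipi1 minus Wipi2 was 1.00 ± 1.01 (log2), positive in 3 of 3 libraries but no larger than its SD. Atg2a and Atg2b encode tube-shaped lipid transfer proteins. Atg2a had 2.12, 1.75 and 3.27 TPM (limma's adjusted p 0.157) and Atg2b 1.37, 1.41 and 1.18 TPM (0.526). Atg2a passed edgeR's quasi-likelihood test on the counts (0.0197) and limma's test without its variance trend (0.0314). When a library was left out, limma's test did not call Atg2a (range over all alternatives 0.0022 to 0.372). In CPM, set against 1 CPM, limma's test called Atg2a (0.0022), Atg2b (0.00136) and Wipi2 (0.000246).

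Atg9a encodes a lipid scramblase carried on small vesicles. It had 189, 0 and 217 counts in replicates 1, 2 and 3, which is 2.22, 0 and 2.86 TPM (limma's adjusted p against 1 TPM 0.627). In replicate 2 its floor of 3 counts was 0.0387 TPM. In the annotation an lncRNA, Gm29253, overlaps Atg9a over 4287 bases, and it had 0, 63 and 0 counts in the same libraries. Reads of overlapping genes cannot be assigned with certainty, since the sources used here do not say whether counting used strand. Atg9b, the paralog of Atg9a, had 0, 24 and 11 counts and a mean of 0.358 ± 0.366 TPM, the lowest of this role (limma's adjusted p 1).

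Of the conjugation enzymes, which join ATG12 to ATG5 and ATG8 proteins to lipid, 4 of 7 were called above 1 TPM and 3 above 10 TPM. Atg5, the acceptor of ATG12, had 72.3, 71.9 and 20.1 TPM (54.8 ± 29.99, SD, n = 3), with replicate 3 low. Its call above 10 TPM (limma's adjusted p 0.0139) was lost without replicate 1 (0.0814; range over all alternatives 1.12e-07 to 0.0814). The E2-like enzymes were steadier: Atg10, which acts on ATG12, had 32.5, 51.2 and 46.6 TPM, and Atg3, which acts on ATG8 proteins, 31.7, 27.3 and 39.7 TPM. Atg12 itself had 30.7, 18.7 and 13.2 TPM and missed the test at 10 TPM (adjusted p 0.0866), which it passed without replicate 3 (0.00962; range over all alternatives 0.000153 to 0.474).

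Atg7, the single E1-like enzyme that activates both ATG12 and ATG8 proteins, had 3.64, 1.63 and 3.83 TPM, well under its E2 partners in every library. It missed the test at 1 TPM (limma's adjusted p 0.0917) and passed with the longest transcript (0.0164; range over all alternatives 0.00055 to 0.263). Atg16l1, which places the ATG5 conjugate on the membrane, had 2.07, 2.27 and 0.361 TPM, and Atg16l2, its paralog, 1.07, 0.889 and 1.09 TPM. Neither was called (adjusted p 0.536 and 0.817), and their difference, 0.25 ± 0.76 (log2), lay within its spread. Atg16l1 is also the gene whose deposited length departs most from its longest transcript. On that transcript its mean was 5.05 ± 3.39 TPM, and it was not called (limma's adjusted p against 1 TPM 0.065). In CPM, set against 1 CPM, limma's test called Atg16l1 (0.0102) and Atg16l2 (0.0173).

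The ATG4 proteases, which prepare ATG8 proteins for conjugation and release them afterwards, had 4 of 4 genes called above 1 TPM and none above 10 TPM. Atg4d had 9.32, 5.56 and 10.2 TPM, Atg4b 10.5, 9.69 and 4.41, Atg4a 11.6, 7.98 and 4.14, and Atg4c 6.34, 10.1 and 3.01. Every gene of the group overlapped every other, and the means lay between 6.50 ± 3.56 TPM for Atg4c and 8.37 ± 2.47 TPM for Atg4d (SD, n = 3; limma's adjusted p for Atg4d against 1 TPM 0.00179). The 6 pairwise differences ran from -0.40 to 0.34 (log2), each under its own SD, so no order was resolved with the deposited length. With the longest transcript Atg4b minus Atg4c was 0.87 ± 0.36 and Atg4a minus Atg4b -0.36 ± 0.20, and in CPM they were 1.31 and -1.26. Atg4c (limma's adjusted p against 1 TPM 0.011) lost its call without replicate 1 (0.0569) and without replicate 2 (0.0575; range over all alternatives 0.000124 to 0.0575). The row Atg4a-ps, on chromosome 3 while Atg4a is on the X chromosome, had 10.5, 6.16 and 5.07 TPM. Its sequence matched the coding bases of Atg4a at 1181 of 1188 positions (99.4%), and 66.3% of its stretches of 50 bases occur in the Atg4a transcript, so the levels of Atg4a and Atg4a-ps are uncertain. Atg5lrt, listed for its name only, had 1, 1 and 0 counts (limma's adjusted p against 1 TPM 1).

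Cargo receptors bring material to ATG8 proteins. Sqstm1, the receptor p62 for ubiquitin-tagged cargo, had 104, 23.2 and 92.2 TPM in replicates 1, 2 and 3 (5395, 1101 and 4282 counts; 73.0 ± 43.5 TPM, SD, n = 3). Replicate 2 was low, a range of 4.46-fold and the largest SD of log2(TPM + 1), 1.17, among the 16 genes with a mean of at least 10 TPM. It was called above 10 TPM (limma's adjusted p 0.0114), but not without replicate 1 (0.0638; range over all alternatives 2.07e-09 to 0.0638). Mrnip, which overlaps Sqstm1 over 750 bases, had 695, 237 and 147 counts. In all, 19 of the 36 genes overlap another annotated gene, 11 of them one with at least 30 counts in a library, and reads there cannot be assigned with certainty. Optn, the receptor optineurin, had 15.7, 11.2 and 14.2 TPM. Nbr1, a receptor related in architecture to p62, had 6.68, 1.03 and 11.4 TPM, an 11.1-fold range with replicate 2 lowest. It was not called above 1 TPM (limma's adjusted p 0.0631). Limma's test called it without replicate 2 (0.000408) and with the longest transcript (0.0318), as did edgeR's quasi-likelihood test on the counts (0.00148). Without replicate 1 or replicate 3 limma's test did not call it (range over all alternatives 0.000408 to 0.206). The order Sqstm1, Optn, Nbr1 from high to low held in 3 of 3 libraries, with Nbr1 minus Sqstm1 at -3.42 ± 0.45 and Nbr1 minus Optn at -1.34 ± 1.16 (log2, SD, n = 3). In CPM Nbr1 minus Optn was -0.63, and in replicate 3 Nbr1 had 828 counts and Optn 527, so this order was not the same in every library without gene length.

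In spread between libraries, the medians of the autophagy genes lay close to those of other genes of their level. Over the 16 genes with a mean of at least 10 TPM, the median SD of log2(TPM + 1) was 0.468, against 0.485 over the 6690 genes of all kinds at that level, and the median coefficient of variation of TPM was 32.2%, against 33.9%. The 5 genes with the largest SD were Sqstm1, Atg101, Atg5, Gabarapl1 and Atg13. Sqstm1, Atg101 and Gabarapl1 were lowest in replicate 2, and Atg5 and Atg13 in replicate 3. In TPM 9 of the 16 were highest in replicate 1, as were 44.9% of all genes at that level. The median log2 level of genes counted in every library was 2.83, 2.53 and 2.67 in TPM and 2.70, 2.66 and 2.67 with edgeR's TMM scaling, in replicates 1, 2 and 3. With TMM scaling 4 of the 16 were highest in replicate 1, so that excess depends on scaling, and Atg5 was then highest in replicate 2.

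**Figure D4:**
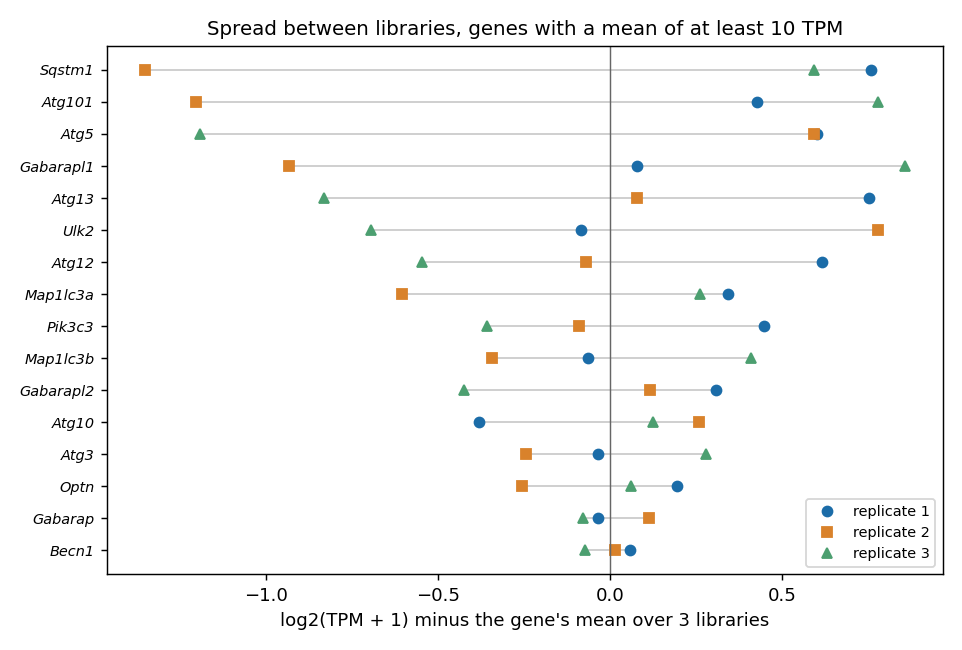
Deviation of each library from the gene's own mean, in log2(TPM + 1), for the 16 genes with a mean of at least 10 TPM, ordered from the largest SD at the top. Sqstm1, Atg101 and Gabarapl1 have replicate 2 far to the left, Atg5 and Atg13 have replicate 3 there, and the 3 points of Becn1 nearly coincide.

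Around the core genes, 46 further genes of the pathway were counted as 5 lists. Of these, 31 (67.4%) were called above 1 TPM, against 37.6% of all genes and 50.5% of protein-coding genes tested. Above 10 TPM 14 (30.4%) were called, against 14.7% and 19.2%. Their median was 7.28 TPM, close to the 8.13 TPM of the core genes. Among the nutrient sensors 6 of 8 were called above 1 TPM. Rheb, the small GTPase that activates mTORC1, had 113, 116.2 and 102.5 TPM, and Prkag1, a subunit of the energy sensor AMPK, 118.1, 55.4 and 107.2 TPM. Of the accessory genes 5 of 9 were called, led by Vmp1, a membrane scramblase, at 34.4 ± 10.7 TPM (SD, n = 3).

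The list that joins other cargo receptors with genes of mitophagy, the removal of mitochondria, had 10 of 13 called above 1 TPM. Of these 13, 7 were called above 10 TPM. The highest were receptors that sit on the outer mitochondrial membrane. Bnip3 had 320.2, 351.2 and 71.2 TPM in replicates 1, 2 and 3, Fundc1 156, 186.3 and 53.0, and Bnip3l 155.7, 123 and 89.7. Each was lowest in replicate 3. Pink1, a kinase that marks damaged mitochondria, had 51.4, 38.9 and 93.9 TPM and was highest in replicate 3.

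For fusion of autophagosomes with lysosomes 8 of 12 genes were called above 1 TPM. Vamp8, the SNARE of the lysosome side, had 677.9, 557.7 and 820.9 TPM, a level in the range of Gabarap. Its partners on the autophagosome were much lower: Stx17 had 8.40, 4.43 and 3.32 TPM and Snap29 3.71, 7.64 and 11.1 TPM. Lamp2, a lysosomal membrane protein, had 75.7, 102.7 and 42.0 TPM, and Rab7, the late endosome GTPase, had 77.5, 70.5 and 65 TPM. Of the transcriptional regulators 2 of 4 were called, Zkscan3 (4.76 ± 1.27 TPM, SD, n = 3) and Foxo3 (3.94 ± 0.751). Tfeb had 0.76, 2.30 and 4.47 TPM (limma's adjusted p against 1 TPM 0.253) and Tfe3 1.59, 0.953 and 3.20 TPM (0.333).

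TFEB and TFE3 bind DNA at motifs that contain CACGTG, a sequence that reads the same on both strands. RefSeq promoter windows (build GRCm38.p6, 250 bases before to 50 after the gene start) were at hand for 28 of the 36 genes, and 4 of these (14.3%) held CACGTG, against 2187 of 27025 genes with a window (8.09%). They were Atg3, with a pair of matches, Atg5, Atg7 and Atg14. The matches are shown with 12 bases on either side and the motif in capitals, 5′ to 3′ on the gene's strand. They lie at chr16:45158723-45158752 and chr16:45158746-45158775 (plus strand), chr10:44268313-44268342 (plus), chr6:114670952-114670981 (plus) and chr14:47568418-47568447 (minus).
Atg3 first match: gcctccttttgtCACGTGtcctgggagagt
Atg3 second match: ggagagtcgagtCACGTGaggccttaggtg
Atg5: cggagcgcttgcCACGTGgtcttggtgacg
Atg7: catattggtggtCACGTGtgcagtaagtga
Atg14: aaaacaaaatccCACGTGactggccctgag

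A match is a description of letters and not a binding site. The 4 genes had mean levels of 32.9 TPM for Atg3, 54.8 for Atg5, 3.03 for Atg7 and 3.00 for Atg14, so they included genes well above and genes below the median of the machinery.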

How the data were processed

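Per the labels' protocols, cDNA of poly(A) RNA was made with oligo(dT) and amplified by PCR. Per the file headers, the deposited table gives counts and FPKM of every gene in every library. HISAT2, StringTie, edgeR and build GRCm39 are listed in the submitters' processing notes, with no versions or roles. The sources used here do not say how reads shared by several genes were counted or whether strand was used. The authors' FPKM is the count over 1 length per gene and over the library's total.

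FPKM was rescaled to a common sum per library (TPM), since genes are compared within libraries, and tested as log2(TPM + 1), which compresses low values. limma 3.58.1 (R 4.3.3) fitted the mean of each of the 27265 genes counted in any of the 3 libraries, with a trend in the variance, and means were tested one-sided against 1 and 10 TPM, with Benjamini-Hochberg adjustment and a threshold of 0.05. edgeR 4.0.16 gave TMM factors, dispersions and a quasi-likelihood test on the counts as an alternative, and DESeq2 1.42.0 gave size factors. Other alternatives were the pseudocount, the filter, CPM, limma without the trend and leaving out each library. Transcript lengths and coding ends came from GENCODE vM21 (GRCm38), matched by gene ID for 95.3% of genes tested and for all 36 members. Paralogs, and the cargo receptors as a group of like role, were compared by exact sign-flip permutation over libraries. The scripts were run on simulated data, with edgeR's common biological coefficient of variation of 0.934 for every gene. For genes with a mean of at least 10 TPM its median was 0.445, so that setting differs from the data. No result above rests on the simulated run. The libraries were not copies of each other: the chi-square per gene between their counts was 95.34 to 148.3.

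Every member is given by role, with its test for the highest and lowest of a role, for members missing the test at 1 TPM, and for the 5 with the largest spread among those whose mean reached 10 TPM. Of other pathway lists up to 3 of the highest genes are named, and Pink1, Stx17, Snap29, Tfeb and Tfe3 were added after their values were seen. Members and lists were chosen with earlier results of these data known.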

Additional observations from a re-analysis of the deposited data

How the results depend on the processing

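No paired analysis was possible because the study has 1 group. Members called above 1 TPM numbered 23 as reported, where 37.6% of all genes were called, and 22 to 33 over all alternatives. The 33 were in CPM, where 43.4% of all genes were called. Members called numbered 22 to 24 when a library was left out, with 33.9% to 39.4% of all genes called. With the longest transcript, added after the data were seen, 27 members and 40.1% of all genes were called. With only genes counted in all 3 libraries, 27 members and 64.7% of the genes tested were called. Without the filter, 25 members and 19.4% were called. Of the 23 calls, 22 held under every alternative, and Atg4c was lost without replicate 1 and without replicate 2. Calls above 10 TPM numbered 11 as reported and 20 in CPM, where 24.2% of all genes were called. They numbered 8 to 13 when a library was left out, with 12.3% to 17.4% of all genes called. The median level was 8.13 TPM, 7.47 to 9.21 TPM when a library was left out, and 29.8 CPM on that other scale; the mean of log2(TPM + 1) over members was 3.69. Without gene length, in CPM, Gabarapl1 minus Map1lc3b turned to -1.35, Wipi1 minus Wipi2 to -0.19, Atg2a minus Atg2b to -0.04 and Atg4b minus Atg4d to 0.05 (log2). With the longest transcript, Gabarapl1 minus Map1lc3b was -0.81, Atg4a minus Atg4d 0.15 and Atg4b minus Atg4d 0.52. When a library was left out, Atg4a minus Atg4b ran from -0.16 to 0.03, Atg4a minus Atg4d from -0.42 to 0.37, Atg4b minus Atg4d from -0.45 to 0.43, Atg4c minus Atg4d from -0.99 to 0.14 and Atg16l1 minus Atg16l2 from -0.03 to 0.68. Against 1 TPM, Atg16l2 ran from -0.02 to 0.06 and Atg9a from -0.16 to 0.82, and Atg9a was -0.32 with a pseudocount of 0.1. For changes not set by a scale's own construction, the cause was not tested. Without the filter, limma warned that its variance moderation was unreliable. The floor of 3 counts lay below 1 TPM for Atg9a and Atg9b, and the number of libraries limits all tests.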
